A study of Mus musculus with 96 samples.

Results

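Mice titled Pms1+/- were set against wild-type mice by RNA sequencing of the striatum and of the cerebral cortex. The comparison took in every library titled Pms1+/- that did not carry the Huntington's disease knock-in, and every wild-type library, which gave 32 of the 96 libraries of the series. They came from 16 of its 48 animals, since each animal gave 1 striatal and 1 cortical library. The question was which genes moved in heterozygous animals in each tissue, and which moved the same way in both.

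The Pms1+/- group and the wild-type group each held 8 animals, 4 females and 4 males, all C57BL/6 mice aged 6 months. The labels do not say how the Pms1 allele was made or which exons it lacks. The other 4 genotypes were Q140 Pms1+/-, Pms1-/-, Q140 Pms1-/- and Q140, where Q140 is the knock-in with an expanded CAG repeat in the mouse's own Htt gene, carried in the heterozygous state by their titles. Their libraries, 8 a tissue for each genotype, entered the fits so that all genotypes shared 1 estimate of the spread between animals.

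Pms1 encodes a protein of the MutL family. MutL proteins act as dimers in DNA mismatch repair, downstream of the MutS proteins that recognise the mismatch, and the role of Pms1 in ordinary repair in mammals is less clear than that of its relative Pms2. In Huntington's disease models mismatch-repair proteins promote the lengthening of the CAG repeat in somatic cells, which is prominent in striatal neurons, and PMS1 is among the genes linked to the age of onset in people. The heterozygote without the knock-in was set against wild type to look for effects of the loss of a Pms1 copy in a brain that has no expanded repeat.

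Pms1 lies on chromosome 1 (chr1:53189187-53297018, minus strand, GRCm38, ENSMUSG00000026098). Its annotated start is 77 bases from that of Ormdl1 (chr1:53297095-53310309, plus strand), a regulator of sphingolipid synthesis read in the opposite direction. The RefSeq promoter window of Pms1 (GRCm38.p6, chr1:53296979-53297278, minus strand) is shown because the 2 genes are read outwards from it and the counts of both follow. It has 300 bases, a GC content of 68.3% and 25 CpG dinucleotides, and it overlaps the Ormdl1 window by 166 bases. The 76 capitals mark the bases between the annotated starts of Pms1 and Ormdl1.
Pms1 promoter: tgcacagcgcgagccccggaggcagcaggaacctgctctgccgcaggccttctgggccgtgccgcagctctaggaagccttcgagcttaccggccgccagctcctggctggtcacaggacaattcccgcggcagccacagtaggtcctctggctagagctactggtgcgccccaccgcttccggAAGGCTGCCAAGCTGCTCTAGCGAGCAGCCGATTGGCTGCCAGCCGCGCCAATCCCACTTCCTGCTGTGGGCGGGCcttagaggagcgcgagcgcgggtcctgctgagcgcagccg

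In the striatum, Pms1 ran from 3.84 to 5.65 CPM (counts scaled to the size of the library) in the 8 Pms1+/- animals, with a median of 4.42 CPM, against 4.89 to 5.85 CPM in the 8 wild-type animals, with a median of 5.38 CPM. The 2 highest heterozygotes, at 4.92 and 5.65 CPM, lay inside the wild-type range and the other 6 lay below it. The means were 4.54 ± 0.563 CPM in Pms1+/- and 5.43 ± 0.343 CPM in wild type (SD, n = 8 each). The log2 fold change was -0.26 (SE 0.0783, 95% interval -0.42 to -0.11), which is 0.832-fold, with an unadjusted p of 0.00141 and an adjusted p of 0.29 by edgeR's quasi-likelihood test, so Pms1 itself was not called. In the cortex Pms1 ran from 2.86 to 4.14 CPM in Pms1+/-, against 3.30 to 4.37 CPM in wild type, and the groups overlapped over most of both ranges. The cortical log2 fold change was -0.14 (95% interval -0.31 to 0.03, adjusted p = 0.589). Per transcript length, the deposited FPKM values of Pms1 averaged 0.593 in Pms1+/- striatum and 0.704 in wild-type striatum, and 0.450 in Pms1+/- cortex and 0.501 in wild-type cortex. All of these are low levels, and they count reads over the whole gene, so they do not check the altered part of the allele.

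The other genotypes place the heterozygote. Striatal Pms1 averaged 4.03 ± 0.445 CPM in Pms1-/- and 4.19 ± 0.357 CPM in Q140 Pms1-/- (SD, n = 8 each), below the 4.54 CPM of Pms1+/-, and Q140 Pms1+/- was at 4.45 ± 0.636 CPM against 5.24 ± 0.614 CPM in Q140. In the knock-in animals the loss of a copy gave a striatal log2 fold change of -0.25 (adjusted p = 0.755). In the cortex all 6 genotypes averaged between 3.43 CPM (Q140 Pms1-/-) and 3.78 CPM (wild type). Homozygotes thus still had most of the wild-type count at the gene, and in the cortex the genotypes differed by less than the SD of 0.472 CPM among heterozygotes.

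Ormdl1, across the shared window, ran from 5.06 to 6.61 CPM in Pms1+/- striatum against 5.01 to 6.43 CPM in wild-type striatum. Its log2 fold changes were 0.06 in the striatum (95% interval -0.08 to 0.20) and -0.05 in the cortex (95% interval -0.18 to 0.07). The groups overlapped almost wholly in both tissues. Whether the fold changes of Pms1 and Ormdl1 differ from each other was not tested. Among the 5 tested genes on each side of Pms1, the cortical log2 fold changes ran from -0.08 for Stk17b to 0.58 for the low 1700019A02Rik, and the striatal ones from -0.35 for 1700019A02Rik to 0.24 for Dnah7a. None was called. At an unadjusted p below 0.05, striatal Inpp1 (-0.05) was lower, and cortical 1700019A02Rik (0.58) and cortical Mfsd6 (0.07) were higher. Within 10 Mb of Pms1, 5 of 124 tested genes were higher and 6 lower at an unadjusted p below 0.05 in the striatum, which is 8.87% of them against 9.96% of all genes. In the cortex 3 of 130 were higher and 16 lower, 14.6% against 10.4% of all genes, with a median log2 fold change of -0.04.

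**Figure D1:**
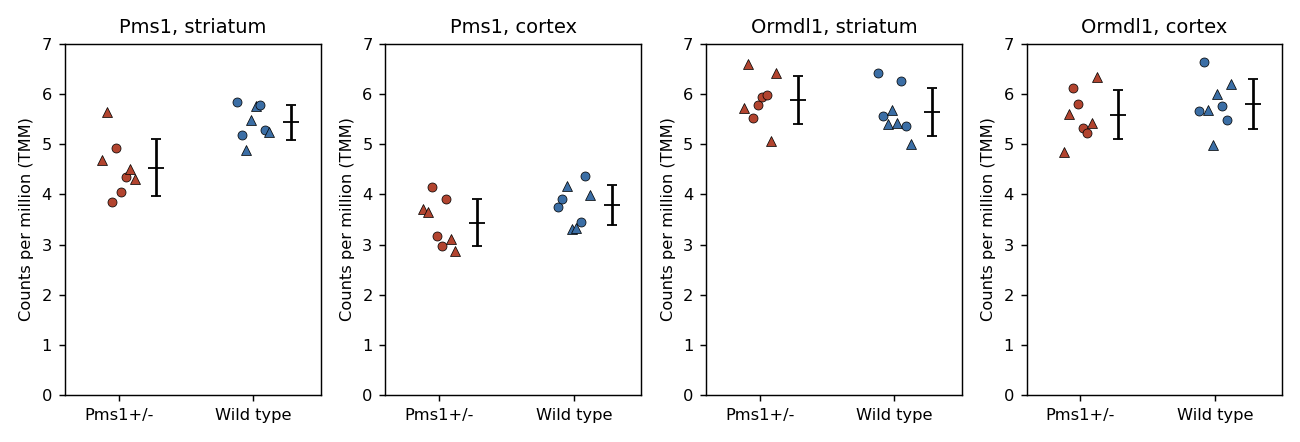
CPM of Pms1 and of its neighbour Ormdl1 in each animal (circles females, triangles males), Pms1+/- left of wild type, with the mean ± SD (n = 8) beside the points. Striatal Pms1 averaged 4.54 CPM in Pms1+/- and 5.43 CPM in wild type, and the other 3 panels show wide overlap.

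Facts of the libraries bear on everything below. Library totals ran from 27993751 to 56364535 counts, and in the striatum they averaged 37684000 ± 6355500 in Pms1+/- and 44744000 ± 6779300 in wild type (SD, n = 8 each; exact permutation test within sex, p = 0.0453, adjusted p = 0.572 over 34 library measures). The labels carry a code for each animal, such as 10-1. What its first number stands for is not given, and only the number 11 occurs in both groups. Genotype and first number therefore cannot be fully told apart in the comparison of Pms1+/- with wild type. The tissues were as labelled: 29 medium spiny neuron genes summed to 27080 CPM in Pms1+/- striatum and 27721 CPM in wild-type striatum, against 4074 ± 67.8 CPM in Pms1+/- cortex and 3930 ± 114 CPM in wild-type cortex. Cortical ependymal markers summed to 6.56 ± 0.553 CPM in Pms1+/- and 7.27 ± 0.320 CPM in wild type, which had the smallest p of all measures (exact permutation test, p = 0.00163, adjusted p = 0.0555). In the striatum the same markers went the other way, at 29.4 ± 6.89 CPM in Pms1+/- and 22.8 ± 6.35 CPM in wild type (exact permutation test, p = 0.0771, adjusted p = 0.572). Striatal microglia markers summed to 504 ± 14.1 CPM in Pms1+/- and 522 ± 12.5 CPM in wild type (exact permutation test, p = 0.0171, adjusted p = 0.572). Cortical choroid plexus markers summed to 212 ± 9.28 CPM in Pms1+/- and 223 ± 9.04 CPM in wild type (exact permutation test, p = 0.0159, adjusted p = 0.18). In such bulk tissue fewer cells of a type and less RNA per cell cannot be told apart. One heterozygous male, 10-1, stood apart from the other 7 of its group more often than any other animal, so the counts, and the fold changes of the leading genes for which it stood apart, are given with and without it.

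Across the whole transcriptome no gene passed an adjusted p of 0.05 in either tissue. In the striatum 0 of 18890 tested genes were called (0%), the smallest adjusted p was 0.148, and 1882 genes had an unadjusted p below 0.05. In the cortex 0 of 18711 were called (0%), the smallest adjusted p was 0.0893, and 1938 genes had an unadjusted p below 0.05. Of all tested genes, 4.65% were higher and 5.31% lower in Pms1+/- striatum at that unadjusted level, and 5.52% were higher and 4.84% lower in Pms1+/- cortex. The split depends on the scaling: by trimmed mean of M-values 878 genes were higher and 1004 lower in the striatum and 1033 higher and 905 lower in the cortex, and by library totals alone 1159 were higher and 615 lower in the striatum and 617 higher and 1486 lower in the cortex. Without the heterozygote 6-2, 609 were lower in the striatum. DESeq2 called 17 genes in the striatum, 4 higher and 13 lower, and 39 in the cortex, 35 higher and 4 lower, while limma on the deposited FPKM called 1 and 0. DESeq2 gave no adjusted p to 22969 of its 33852 striatal genes and 26472 of its 34140 cortical genes, so its calls are out of the rest. Without 10-1 the edgeR calls became 2 in the striatum and 24 in the cortex, and without the wild-type female 11-4 there were 16 in the cortex.

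The same fits called many genes in some of the other comparisons. Pms1-/- against the same wild-type libraries gave 1494 calls in the striatum and 1792 in the cortex, where all 8 Pms1-/- animals but only 2 of the 8 wild-type animals have codes from 16 up, so that genotype and code cannot be told apart. Q140 Pms1-/- against Q140 gave 1342 calls in the striatum and 2 in the cortex, and Q140 Pms1+/- against Q140 gave 0 in each tissue. How far a heterozygous effect could hide is shown by the intervals. Among the 15230 striatal genes that averaged 1 CPM or more, the median SE of a log2 fold change was 0.047, and the 95% interval lay wholly within a 1.5-fold change for 98.1% and within a 2-fold change for 99.5%. In the cortex those shares were 98.6% and 99.8% of 15179 genes. A fitted change above 1.5-fold in either direction was seen for 31 of these genes in the striatum and 18 in the cortex. Replicates are separate animals by their labels.

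The other mismatch-repair genes named here lay close to wild type, with the largest change in cortical Fan1. Of the MutL family, Pms2, the main endonuclease subunit, averaged 16.7 CPM in Pms1+/- and 17.5 CPM in wild type in the striatum, and Mlh3, which takes part in repeat instability, 36.4 CPM in Pms1+/- and 37.2 CPM in wild type. Their striatal log2 fold changes were -0.06 for Pms2 and -0.03 for Mlh3, and their cortical ones -0.02 for Pms2 and 0.06 for Mlh3. The MutS genes Msh3 and Msh6, which recognise mismatches and loops, had log2 fold changes of -0.04 for Msh3 and -0.01 for Msh6 in the striatum and of -0.07 for Msh3 and -0.02 for Msh6 in the cortex. Fan1, a nuclease that limits repeat lengthening in mice, ran from 8.77 to 11.0 CPM in Pms1+/- cortex and from 9.58 to 11.8 CPM in wild-type cortex, a log2 fold change of -0.12 with an adjusted p of 0.369. Striatal Fan1 was at 13.6 CPM in Pms1+/- and 13.3 CPM in wild type. Htt averaged 215 CPM in Pms1+/- striatum and 213 CPM in wild-type striatum, and 245 CPM in Pms1+/- cortex and 237 CPM in wild-type cortex. Over the 21 tested genes of the mismatch-repair list, which holds Pms1, 0 were higher and 1 lower at an unadjusted p below 0.05 in the striatum (median log2 fold change -0.01), and 0 were higher and 2 lower in the cortex (median -0.03). Of all genes 5.31% were lower in the striatum and 4.84% in the cortex at that level. The list summed to 401 ± 5.70 CPM in Pms1+/- cortex and 408 ± 5.52 CPM in wild-type cortex (exact permutation test, p = 0.0424, adjusted p = 0.297). In the striatum the sums were 421 ± 9.46 CPM in Pms1+/- and 423 ± 5.14 CPM in wild type (exact permutation test, p = 0.562, adjusted p = 0.851).

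Genes that moved the same way in both tissues formed a small group of small changes. Among the 17976 genes tested in both tissues, 54.7% had the same sign, and 206 had an unadjusted p below 0.05 in both with the same sign against 41 with opposite signs. The 2 tissues came from the same animals, so these counts are not independent. At an unadjusted p below 0.01 in both tissues, 33 genes remained, of which 31 (0.172% of the genes tested) had the same sign, 9 higher and 22 lower in Pms1+/-. Their sizes ran from 0.07 to 0.56 on the log2 scale in the striatum and from 0.07 to 0.50 in the cortex, and only Wdfy1 passed 1.2-fold in both tissues. Their smallest adjusted p was 0.161 in the striatum and 0.152 in the cortex, and for none of the 31 were the 2 groups free of overlap in either tissue. Without 10-1 the count of 31 became 81, and without the wild-type male 14-4 it became 48. Leaving out 1 of 8 other animals cut it to between 11 and 19: 19 without 12-4 or 13-2, 18 without 13-4, 15 without 27-5, 12 without 14-2 or 27-2, and 11 without 6-1 or 6-2. In females alone it was 15 and in males alone 9. It was 14 in a fit of the 2 genotypes alone, 17 with the first number of the code as a block and 1 without the animals of codes from 16 up.

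**Figure D2:**
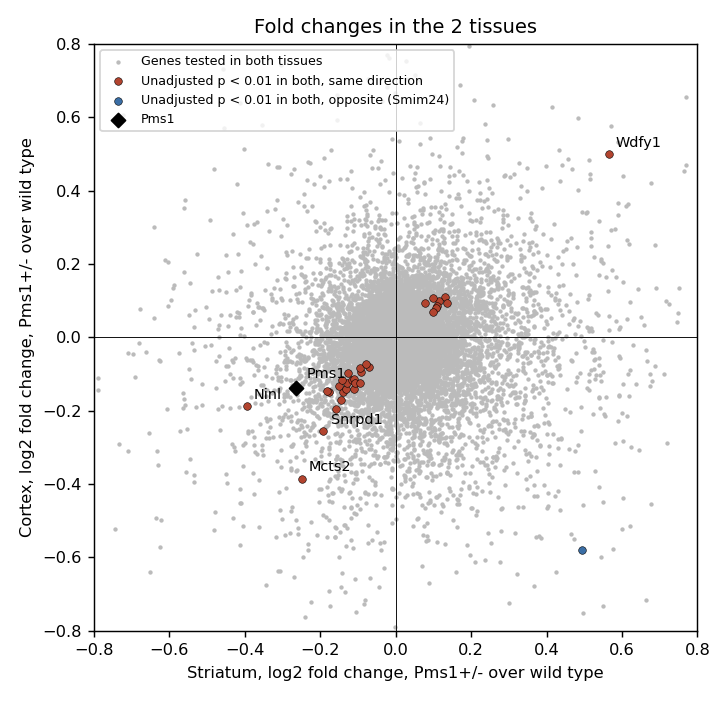
Log2 fold change of Pms1+/- over wild type in the striatum (x) and the cortex (y) for the 17976 genes tested in both, of which 62 lie outside the axes. The 31 genes at an unadjusted p below 0.01 in both tissues with the same sign are in red, and apart from Wdfy1, Mcts2, Ninl and Snrpd1 they lie near the centre.

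Wdfy1, which encodes an endosomal adaptor protein with a FYVE domain, had the largest of the 31 changes. In the striatum it ran from 34.9 to 61.9 CPM in Pms1+/- (median 48.1 CPM), against 20.8 to 57.1 CPM in wild type (median 31.7 CPM), and the means were 48.6 ± 10.4 CPM in Pms1+/- and 33.3 ± 13.2 CPM in wild type (SD, n = 8 each). In log2 terms it was higher by 0.56 in the striatum (SE 0.172, adjusted p = 0.299) and by 0.50 in the cortex (SE 0.175, adjusted p = 0.311). The animals fell into 3 separate ranges. In the striatum 4 wild-type animals and no heterozygote lay at 20.8 to 23.9 CPM. In the middle range were 4 heterozygotes at 34.9 to 42.3 CPM and 3 wild-type animals at 39.4 to 41.6 CPM. In the upper range were 4 heterozygotes at 53.9 to 61.9 CPM and 1 wild-type animal at 57.1 CPM. The cortex had the same 3 ranges, and 16 of 16 animals fell in the same range in both tissues. In Pms1-/- all 8 animals lay between 49.6 and 55.4 CPM in the striatum.

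Wdfy1 lies on the same chromosome as Pms1, 26.4 Mb away (chr1:79702262-79776143). It is one of 9 genes listed as differing between C57BL/6 substrains. Of the 7 tested, Wdfy1 alone was higher and none lower at an unadjusted p below 0.05 in the striatum, and 2 were higher and 1 lower in the cortex, with a median log2 fold change of 0.06 in the striatum and 0.05 in the cortex. Of all genes, 4.65% were higher in the striatum and 5.52% in the cortex at that level. The part of linked or strain-derived sequence in the Wdfy1 difference was not tested. Q140 Pms1+/- averaged 44.1 ± 7.83 CPM against 32.5 ± 10.2 CPM in Q140 (SD, n = 8 each) in the striatum, a log2 fold change of 0.45 with an unadjusted p of 0.0121.

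The next largest members were mostly lower in Pms1+/-. Mcts2, an imprinted retrogene copy of a translation re-initiation factor gene, ran from 3.97 to 5.13 CPM in Pms1+/- striatum (median 4.47) against 4.64 to 6.53 CPM in wild-type striatum (median 5.23). In the cortex it ran from 3.95 to 6.04 CPM in Pms1+/- (median 4.33) against 4.72 to 7.93 CPM in wild type (median 5.63), and the highest heterozygote, 10-1, was the only one above the wild-type median. Its log2 fold changes were -0.25 in the striatum (adjusted p = 0.202) and -0.38 in the cortex (adjusted p = 0.152). Mcts2 (chr2:152687035-152687946) lies inside H13, so how reads were shared between these genes is uncertain. In the cortex alone Mcts2 was called without 10-1 (log2 fold change -0.45), without 11-4 (-0.42) and without 14-4 (-0.42). Its change was smallest without the wild-type male 8-4, at -0.31 in the cortex and -0.21 in the striatum.

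Ncl, which encodes nucleolin of the nucleolus, was expressed far higher and varied less. It ran from 297 to 345 CPM in Pms1+/- striatum (median 307) against 312 to 363 CPM in wild-type striatum (median 347). The heterozygote at 345 CPM was 10-1, and the other 7 lay at or below 315 CPM, at the low end of wild type. In the cortex Ncl ran from 210 to 253 CPM in Pms1+/- (median 214) against 219 to 274 CPM in wild type (median 242), with 10-1 again the highest of its group. The log2 fold changes of Ncl were -0.14 in the striatum (SE 0.034, adjusted p = 0.161) and -0.15 in the cortex (SE 0.0453, adjusted p = 0.27). Without 10-1 they were -0.16 and -0.18. Without the animals of codes from 16 up they were -0.10 and -0.08.

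Bex2, a small X-linked gene of neurons, had medians of 129 CPM in Pms1+/- and 151 CPM in wild type in the striatum and of 120 CPM in Pms1+/- and 135 CPM in wild type in the cortex. Its cortical maximum in Pms1+/-, 157 CPM in 10-1, was above the wild-type maximum of 151 CPM. The log2 fold changes of Bex2 were -0.18 in the striatum and -0.15 in the cortex, and without 10-1 both were -0.20. They were -0.15 and -0.12 without the wild-type female 27-5. Itpka, an inositol trisphosphate kinase of dendritic spines, had log2 fold changes of -0.18 in the striatum and -0.15 in the cortex, from medians of 112 CPM in Pms1+/- and 133 CPM in wild type and of 134 CPM in Pms1+/- and 146 CPM in wild type. Snrpd1, a core protein of the spliceosomal small nuclear ribonucleoproteins, had log2 fold changes of -0.19 in the striatum and -0.26 in the cortex, and its relative Snrpd3 was also among the 31. Without 10-1 the values were -0.22 and -0.17 for Itpka and -0.22 and -0.31 for Snrpd1, in the striatum and the cortex. For both genes 10-1 was the highest heterozygote, so leaving it out enlarged the change, while leaving out other animals made it smaller. Cortical Itpka was at -0.11 without the wild-type male 14-2. Snrpd1 was at -0.16 in the striatum without 12-4 and at -0.21 in the cortex without 27-2. Ninl, a centrosomal protein gene, had the largest negative striatal value, -0.40, but wild type alone spanned 4.10 to 9.80 CPM there, and the value was -0.25 without the wild-type female 27-2 and -0.16 without the animals of codes from 16 up. The remaining genes of the 10 largest were Snx7, a sorting nexin (-0.16 in the striatum and -0.20 in the cortex), Cmc1, which acts in cytochrome oxidase assembly (-0.15 and -0.17 in the same order of tissues), and Impact, an inhibitor of the Gcn2 stress kinase (-0.15 and -0.13). Impact rested largely on the wild-type female 27-5, at 325 CPM in the striatum and 304 CPM in the cortex, without which the values were -0.08 and -0.07. The wild-type male 8-4 was also high, at 277 CPM in the striatum and 288 CPM in the cortex, and without it the values were -0.12 and -0.09.

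The 10 genes above were the largest by the smaller of a gene's 2 values, and the other 21 of the 31 came below them by that measure. Those higher in Pms1+/- in both tissues included genes that act on actin and dynein, namely Daam1, Srgap2 and Flii, and the dynein adaptor Bicd2, and also Pxk, Sh3rf1, Sh3bp5l and Lrrfip1. Those lower included Yars, the tyrosyl-tRNA synthetase, Eny2, a subunit of the SAGA and TREX-2 complexes, Tceb1, which encodes elongin C, Spop, a substrate adaptor of a cullin ubiquitin ligase, Tbk1, an innate immune kinase, and Dhodh, an enzyme of pyrimidine synthesis. The rest were Gm2415, Rab40b, Tmem209, Rbm7, Tceal6 and Fam103a1, all lower. No theme was tested for.

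**Figure D3:**
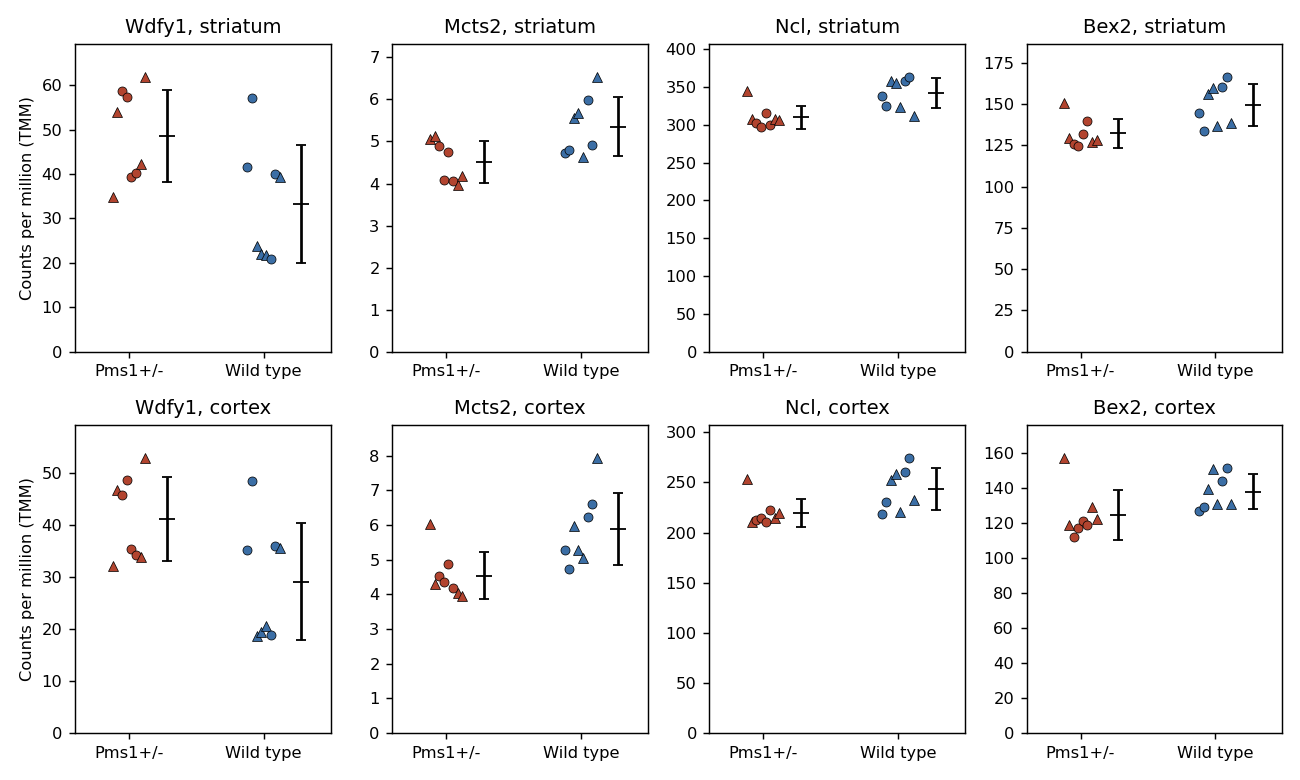
CPM of Wdfy1, Mcts2, Ncl and Bex2 in each animal (circles females, triangles males) in the striatum (top) and the cortex (bottom), Pms1+/- left of wild type, with the mean ± SD (n = 8). Wdfy1 splits into 3 ranges, and for Ncl and Bex2 the highest Pms1+/- point in each tissue is animal 10-1.

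Adding the 2 libraries of each animal gave 1 profile per animal. In these sums 0 of 20632 tested genes were called (0%), with 2046 at an unadjusted p below 0.05 and a smallest adjusted p of 0.135, for Mcts2 (log2 fold change -0.32). DESeq2 on the sums called only Mcts2. The libraries of 1 animal shared their deviations, with a correlation above 0.1 in 16 of 16 animals, and a fit that kept the animal as a random block called 10 genes, 2 higher and 8 lower. They were Wdfy1 (log2 fold change 0.58), Mcts2 (-0.33), Bex2 (-0.17), Itpka (-0.17), Ncl (-0.15), Eny2 (-0.13), Ebag9 (-0.13), Zbtb18 (-0.12), Yars (-0.11) and Pxk (0.11), of which all but Ebag9 and Zbtb18 belong to the 31. This overlap was likely from the start, because the block fit used the libraries that chose the 31. That fit used 1 correlation, 0.19, for all genes. For a gene whose 2 libraries agree more closely, such as Wdfy1, it treats them as too independent and its p is too small. In the edgeR fit of the sums the adjusted p was 0.36 for Wdfy1 and 0.277 for Ncl. Without 10-1 the sum gave 15 calls, without 11-4 it gave 2 and without 14-4 it gave 1.

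The knock-in animals give the same loss of a Pms1 copy in animals outside the groups whose difference chose the 31 genes. Their libraries did enter the fits behind that choice, through the shared estimate of the spread between animals. The knock-in comparison is therefore not fully independent of the choice. In Q140 Pms1+/- against Q140, 21 of the 31 genes (67.7%) had the same sign as before in the striatum and 20 (64.5%) in the cortex, and 15 did in both, while over all genes the shares were 47.4% and 48.6%. The sizes were much smaller. The median change in the original direction was 0.01 on the log2 scale in each tissue in the knock-in animals, against 0.13 in the striatum and 0.12 in the cortex without the knock-in. At an unadjusted p below 0.05 only 1 of the 31 passed in the striatum and 4 in the cortex, all in the original direction, where 5.43% of all striatal genes and 5.69% of all cortical genes passed in either direction. Wdfy1 was the striatal one. Bex2 had log2 fold changes of -0.09 in the striatum (unadjusted p = 0.0503) and -0.12 in the cortex (unadjusted p = 0.0338), and Ncl of -0.03 and -0.08 in the same order of tissues.

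**Figure D4:**
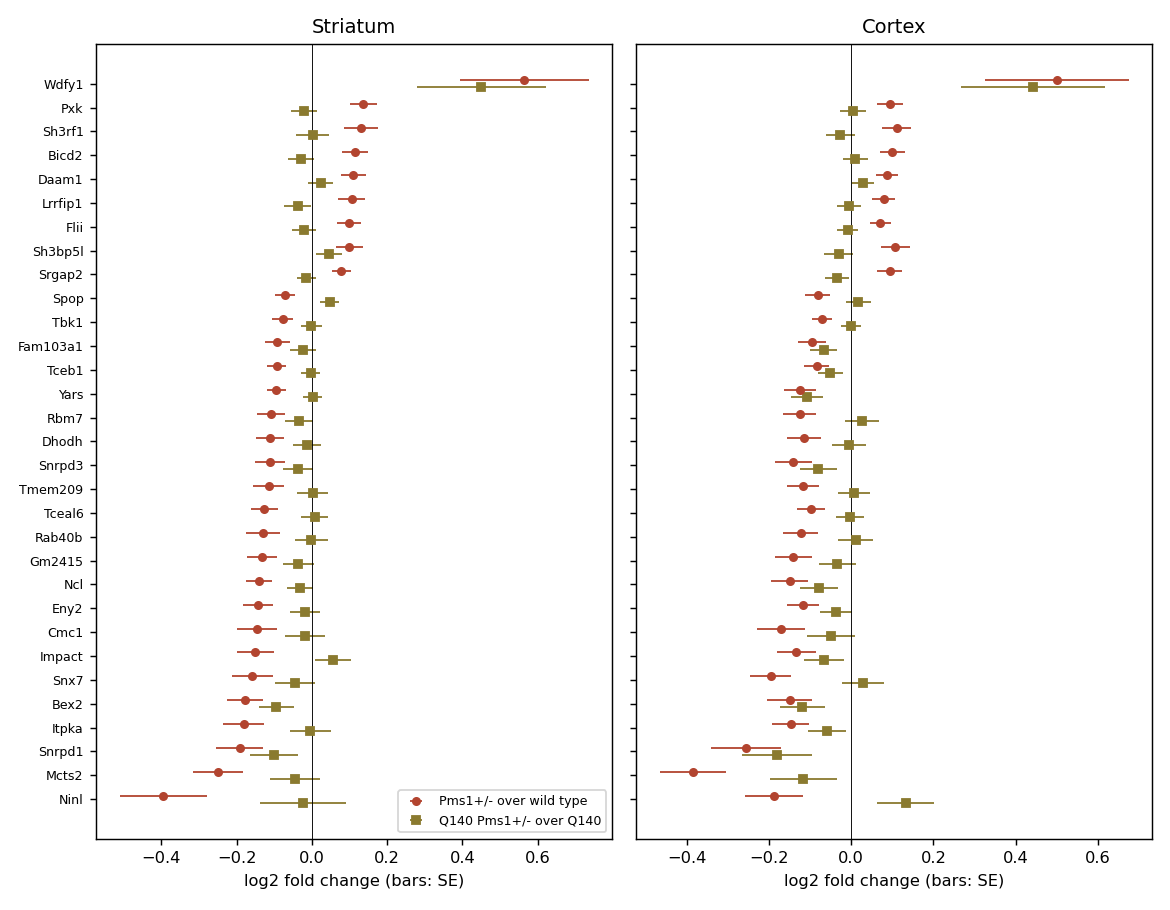
Log2 fold changes (points) with their SE (bars) of the 31 genes, for Pms1+/- over wild type in red and for Q140 Pms1+/- over Q140 in olive, in the striatum and the cortex. Apart from Wdfy1 most knock-in values lie close to 0.

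The genes with the smallest p in the striatum alone were mostly lower in Pms1+/-. Bhlhe40, a transcriptional repressor tied to the circadian clock and to neuronal activity, ran from 57.0 to 69.9 CPM in Pms1+/- against 73.4 to 94.1 CPM in wild type, so that the groups did not overlap (log2 fold change -0.34, SE 0.082, adjusted p = 0.161). It was called in a fit of the 2 genotypes alone and by DESeq2, and its cortical log2 fold change was -0.06. Zbtb18, a zinc-finger repressor of neuronal development, ran from 130 to 153 CPM in Pms1+/- against 154 to 171 CPM in wild type, again without overlap (-0.18, adjusted p = 0.148). Both genes were chosen by their small p among all genes, so the lack of overlap adds no evidence. The share of all genes without overlap is not given here. Ebag9 ran from 22.3 to 25.6 CPM in Pms1+/- against 24.9 to 27.7 CPM in wild type (-0.15, adjusted p = 0.148). In knock-in striatum the corresponding values were 0.09 for Bhlhe40, 0.04 for Zbtb18 and 0.00 for Ebag9. The alanyl-tRNA synthetase gene Aars (-0.09), the ubiquitin ligase scaffold gene Cul4a (-0.11), the endosomal tethering gene Vps11 (-0.10), Baiap2l2 (-0.43) and Ncl were also lower. The collagen gene Col27a1 (0.26) and Dgat1 of triglyceride synthesis (0.15) were higher. Of the 18 clock genes 5 were lower and 0 higher in Pms1+/- striatum at an unadjusted p below 0.05, Bhlhe40 among them, where 5.31% of all genes were lower, while in the cortex 2 were higher and 1 lower. The labels give no time of day of collection.

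In the cortex the genes with the smallest p were mostly higher in Pms1+/-. Tbc1d9b, which belongs to the family of Rab GTPase-activating proteins, came closest to a call. It ran from 235 to 276 CPM in Pms1+/- (median 263) against 205 to 252 CPM in wild type (median 228), a log2 fold change of 0.19 (SE 0.0379, adjusted p = 0.0893). Tbc1d9b was called by DESeq2 and when the heterozygote 10-1 or 1 of the wild-type animals 8-4, 11-2, 11-4 and 14-4 was left out. Its striatal log2 fold change was 0.05, and in Q140 Pms1+/- against Q140 the values were 0.12 in the striatum and 0.08 in the cortex, with unadjusted p of 0.0037 and 0.0299. Iqsec1, an exchange factor for Arf6, ran from 407 to 464 CPM in Pms1+/- against 366 to 438 CPM in wild type (0.14). Also higher were Elmo1, a partner of Rac exchange factors (0.15), Hgsnat, a lysosomal enzyme (0.14), Scrt2, a neuronal zinc-finger gene (0.28), and Sgpp2, a sphingosine-1-phosphate phosphatase (0.22). Mcts2, Mageh1 (-0.18), the ubiquitin-conjugating enzyme gene Ube2e3 (-0.14) and Glod4 (-0.13) were lower. Without 10-1, which stood apart for them, Scrt2 was at 0.32, Mageh1 at -0.20 and Glod4 at -0.15. Their smallest changes with 1 animal left out were 0.25 for Scrt2 (without 12-4), -0.16 for Mageh1 (without 27-2) and -0.12 for Glod4 (without 27-5).

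Genes of the unfolded protein response had mostly positive values in both tissues. This pathway answers misfolded protein in the endoplasmic reticulum by raising chaperones such as Hspa5 through transcription factors that include Xbp1 and Atf4. Of the 14 listed genes 6 were higher and 2 lower at an unadjusted p below 0.05 in the striatum, where 4.65% of all genes were higher, and 7 were higher and 0 lower in the cortex, where 5.52% were; none was called. The median log2 fold changes were 0.12 in the striatum and 0.13 in the cortex, with medians over all genes of -0.0018 and -0.0039. The list summed to 1377 ± 179 CPM in Pms1+/- striatum and 1263 ± 144 CPM in wild-type striatum. In the cortex the sums were 1285.5 ± 138 CPM in Pms1+/- and 1201 ± 90.3 CPM in wild type. The striatal sums showed no clear difference (exact permutation test, p = 0.187, adjusted p = 0.636). Nor did the cortical sums (exact permutation test, p = 0.191, adjusted p = 0.454). Hspa5, the main chaperone of that compartment, ran from 207 to 432 CPM in Pms1+/- striatum (median 304) against 202 to 350 CPM in wild-type striatum (median 235), so the groups overlapped over most of their range. Its log2 fold changes were 0.29 in the striatum (SE 0.112, adjusted p = 0.394) and 0.24 in the cortex (adjusted p = 0.457). Sdf2l1, an Hspa5 partner, had values of 0.28 and 0.30 in the same order of tissues, and Pdia4, a disulfide isomerase, of 0.24 and 0.22. Negative values were those of Atf4 (-0.11) and Dnajb9 (-0.06) in the striatum, and of Atf3 (-0.42), Trib3 (-0.25), Atf4 (-0.14) and Dnajb9 (0.00 after rounding) in the cortex.

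These counts rested on few animals. Without the animals whose code starts with a number of 16 or more, which are 27-2 and 27-5 of wild type, all Pms1-/- and Q140 Pms1-/- animals and a few other knock-in animals, the counts of genes higher were 0 in each tissue. In the striatum the count of 6 became 1 without the heterozygote 6-2, 2 without 27-2 or 27-5 and 3 without 6-1 or 5-3. In the cortex the count of 7 became 0 without 6-1 or 6-2, 1 without 14-2 or 27-2 and 2 without 27-5. In Q140 Pms1+/- against Q140, 0 of the 14 were higher in either tissue, and the median log2 fold changes were 0.02 in the striatum and -0.02 in the cortex. Hspa5 there averaged 241 ± 46.7 CPM in Q140 Pms1+/- and 237 ± 35.0 CPM in Q140 striatum (SD, n = 8 each).

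**Figure D5:**
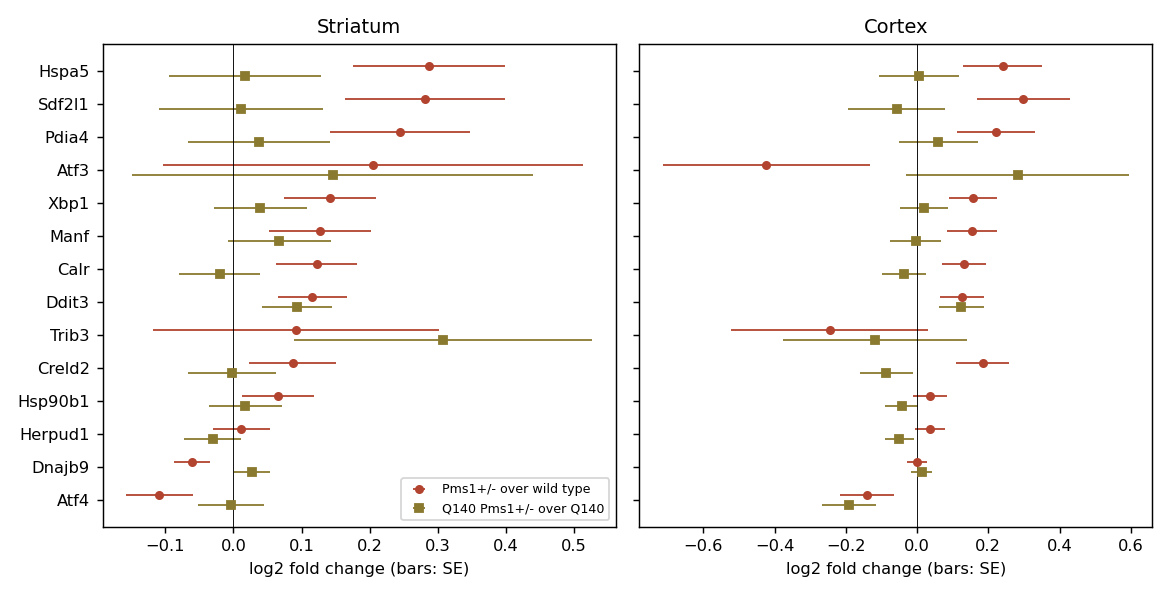
Log2 fold changes (points) with their SE (bars) of the 14 listed unfolded protein response genes, for Pms1+/- over wild type in red and for Q140 Pms1+/- over Q140 in olive. Hspa5, Sdf2l1 and Pdia4 have the highest red values in both tissues, and their olive values lie near 0.

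No gene of the other listed groups was called, and counts at an unadjusted p below 0.05 follow for some of these groups. The counts of the rest, such as cholesterol synthesis, microglia and heat shock genes, are not given here. Of all genes at that level 4.65% were higher and 5.31% lower in the striatum, and 5.52% higher and 4.84% lower in the cortex. Positive log2 fold changes were held by 49.0% of all striatal genes and 47.8% of all cortical genes. Of 20 p53 and DNA damage genes 1 was higher and 1 lower in the striatum, and 1 was higher and 0 lower in the cortex. Of 18 interferon response genes 1 was higher and 0 lower in the striatum, and 0 were higher and 2 lower in the cortex. The 29 medium spiny neuron genes had 0 higher and 1 lower in the striatum, whereas in the cortex 5 were higher and 0 lower, beside a summed level of 4074 CPM in Pms1+/- and 3930 CPM in wild type (exact permutation test, p = 0.0127, adjusted p = 0.18). Of 15 interneuron genes 4 were higher and 0 lower in the cortex, and of 7 tested direct-pathway and 7 tested indirect-pathway genes 2 were higher and 1 lower in each set there. In the striatum 0 interneuron genes were higher and 0 lower. There 0 of 8 direct-pathway genes were higher and 0 lower, and 0 of 7 tested indirect-pathway genes were higher and 1 lower. Of 20 ion channel and synaptic genes 0 were higher and 4 lower in the striatum, whereas in the cortex 2 were higher and 0 lower. All 10 listed collagen and meningeal genes had negative log2 fold changes in the cortex (median -0.22), 2 of them at an unadjusted p below 0.05. In the striatum 4 of them were positive and 6 negative (median -0.06), with 1 higher and 0 lower at that level. All 5 tested blood genes were lower in both tissues, with medians of -1.43 in the striatum and -1.67 in the cortex, none called. At an unadjusted p below 0.05, 0 of them were lower in the striatum and 2 in the cortex. Their summed level was 1.33 ± 2.55 CPM in Pms1+/- striatum and 3.61 ± 3.94 CPM in wild-type striatum. The part of cell makeup in these values was not tested.

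Whether the heterozygous effect differed between the tissues was tested directly, and 0 of 19723 genes were called (0%), with 1570 at an unadjusted p below 0.05. That fit had no term for the animal, so it treated the 2 libraries of an animal as independent. DESeq2, also without an animal term, called 18, all with a lower value in the striatum than in the cortex, Syt1, Thy1 and Kif1a among them. It gave no adjusted p to 34122 of its 35918 genes, so the 18 are out of the rest. Only Smim24 (0.49 in the striatum and -0.58 in the cortex) and Gm14703 (1.36 and -1.25) had opposite signs at an unadjusted p below 0.01 in each tissue. Both were low, with Gm14703 at 0.0689 to 0.589 CPM in Pms1+/- striatum and 0.0739 to 0.151 CPM in wild-type striatum. With the animal as a fixed block only Gm14703 was called (difference 2.59), and 2296 of the 19723 genes had an unadjusted p below 0.05.

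The effect was also compared between the sexes. In the striatum 1 gene was called for a difference, Pcdha1, a clustered protocadherin gene on chromosome 18, and 758 genes had an unadjusted p below 0.05; in the cortex 0 were called and 974 had such a p. Among females Pcdha1 averaged 2.27 ± 0.531 CPM in Pms1+/- and 1.17 ± 0.193 CPM in wild type (SD, n = 4 each), and the groups did not overlap. Among males it averaged 1.09 ± 0.206 CPM in Pms1+/- and 2.42 ± 0.534 CPM in wild type (SD, n = 4 each), again without overlap and in the opposite direction. The log2 fold changes were 0.95 in females and -1.15 in males, a difference of 2.10 (edgeR, adjusted p = 0.00225). It was called in 18 of 18 settings, with an adjusted p of 0.000703 to 0.0175 as animals were left out in turn. These settings were added after the data were seen and used the animals that had picked Pcdha1 out of all genes. The repeated calls and the lack of overlap were therefore likely from the start and say little more about this gene. In the cortex the difference was 0.56 with an adjusted p of 0.944. Pcdha genes share their last exons, so the assignment of reads to Pcdha1 is uncertain.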

How the data were processed

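RNA was sequenced from 96 libraries, and gene-level reads are given as counts in the authors' deposited table, beside a deposited table of FPKM values. Per the submitters' processing notes the tools were STAR 2.7.5c, SAMtools 1.10 and HTSeq 0.12.3 with the builds GRCm38 and mm10; the sources used here give neither annotation release nor strand setting, so overlapping and antisense genes are uncertain. Of 48795 gene IDs, 48349 matched GENCODE M21. The depth was 27993751 to 56364535 counts a library.

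Each tissue was fitted with its 48 libraries in edgeR 4.0.16 (R 4.3.3) with TMM scaling, a filter on low counts, genotype and sex as terms and the quasi-likelihood test. Calls used a Benjamini-Hochberg adjusted p below 0.05. Other fits summed the 2 libraries of an animal, or took all 96 libraries for the difference between tissues. Same-animal libraries correlated in their deviations (median 0.278, lowest 0.133, 16 of 16 above 0.1), and the labels give the animal. Alternatives were DESeq2 1.42.0, other scalings and filters, limma 3.58.1 on log2(FPKM + 0.1) and log2(FPKM + 1), each sex alone, animal blocks and leaving out each animal. Exact permutation tests of library measures shuffled genotype within each sex (4900 arrangements). Scripts were tested on simulated data. Of 48 same-sex pairs of libraries within the groups, none agreed within sampling noise.

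Genes were named by rule: mismatch-repair genes (some are not reported here), the 10 smallest p per tissue where fewer than 10 were called (mean of at least 1 CPM, the same sign in both sexes, no predicted-gene names), the 10 largest changes among genes at an unadjusted p below 0.01 in both tissues with the same sign, neighbours of Pms1 and list members; the rest of the 31, and genes called by other fits, were named after their values were seen. The members and all gene lists were chosen with earlier results of these data known.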

Additional observations from a re-analysis of the deposited data

Results flagged for a closer look

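Single animals that stood apart from the other 7 of their group were looked for in 272 groups of values, by the gap to the nearest animal as a share of the whole range; the limit was Dixon's 95% critical value for groups of 8. There were 28 such cases, and chance gives about 1 in 20. Animal 10-1, a Pms1+/- male, accounted for 14.

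In the striatum, 10-1 was high for Mlh3 (41.7 CPM against 34.2 to 36.7 in the other Pms1+/- animals, gap 0.668) and Ncl (345 against 297 to 315, gap 0.63) and low for Tbc1d9b (233 against 261 to 276, gap 0.655). In the cortex 10-1 was high for Ncl (253 CPM against 210 to 222, gap 0.717), Mcts2 (6.04 against 3.95 to 4.88, gap 0.554), Snrpd1 (23.5 against 15.3 to 18.8, gap 0.569), Bex2 (157 against 112 to 129, gap 0.61), Itpka (151 against 128 to 138, gap 0.544), Glod4 (gap 0.561), Mageh1 (gap 0.681), Inpp1 (gap 0.605) and Atf4 (140 against 97.9 to 111, gap 0.689). It was low there for Scrt2 (17.3 against 21.7 to 24.7, gap 0.597) and Stk17b (gap 0.574). For each of Ncl, Mcts2, Snrpd1, Bex2, Itpka and Scrt2 its value was on the wild-type side of its group.

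Wild-type male 14-2 stood apart in the cortex for Htt (209 CPM against 234 to 251, gap 0.596), Zbtb18 (531 against 446 to 476, gap 0.647), Aars (gap 0.529) and Itpka (179 against 135 to 155, gap 0.533). Wild-type female 27-2 did in the striatum for Mlh3 (gap 0.701), Baiap2l2 (gap 0.657) and Iqsec1 (gap 0.5262). Heterozygous male 6-2 did for Msh6 in the cortex (24.7 CPM against 21.2 to 22.1, gap 0.74), Herpud1 in the cortex (74.5 against 57.9 to 65.5, gap 0.542) and the sum of cortical projection markers in the striatum (411 against 363 to 385, gap 0.549). Heterozygous female 5-3 had the highest sum of blood genes of its group in the striatum (7.61 CPM against 0.207 to 1.13, gap 0.875) and the cortex (6.60 against 0.0899 to 0.854, gap 0.883). Striatal Scrt2 in wild-type male 8-4 (gap 0.629) and cortical Mfsd6 in wild-type female 11-4 (gap 0.548) completed the cases.

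The effect differed between females and males for striatal Pcdha1, by 2.10 on the log2 scale, and between striatum and cortex for Gm14703 in the fit with the animal as a fixed block, by 2.59.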

How the results depend on the processing

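In edgeR, RLE size factors, library totals, no filter on low counts, a mean of at least 1 CPM, no sex term, females alone and leaving out the animals of codes from 16 up, and in limma the first number of the code as a block, all gave 0 calls in each tissue. Counts above 0 came from DESeq2 (17 in the striatum, 39 in the cortex, 1 in the animal sum and 18 for the difference between tissues), from the 2 genotypes alone (1 in the striatum), from FPKM with either added constant (1 in the striatum), from males alone (1 in each tissue and 1 in the sum), from an adjusted p below 0.10 (1 in the cortex), from the animal as a random replicate block (10 in the sum) and from the animal as a fixed replicate block (1 for the difference). Leaving out 1 animal at a time gave 0 to 2 calls in the striatum (2 without 10-1), 0 to 24 in the cortex (24 without 10-1, 16 without 11-4, 2 without 14-4, and 1 without 8-4 or 11-2) and 0 to 15 in the sum (15 without 10-1, 2 without 11-4, 1 without 14-4). No gene was called in both tissues under any setting. Of the 24 cortical calls without 10-1, 15 were among DESeq2's 39. In Q140 Pms1+/- against Q140, dropping the filter gave 1 call in the striatum.

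The 31 genes at an unadjusted p below 0.01 in both tissues with the same sign became 14 with the 2 genotypes alone, 17 with the code as a block, 15 in females, 9 in males, 1 without the animals of codes from 16 up (27-2 and 27-5 in the 2 groups), and 11 to 81 when 1 animal was left out. The unfolded protein response genes higher at an unadjusted p below 0.05, 6 in the striatum and 7 in the cortex, became 1 and 1 with the 2 genotypes alone, 3 and 2 without the sex term, 1 and 1 in females and 2 and 3 in males. The cause was not tested for any of these. In 960 refits of the genes chosen by p in the tissue that chose them and of Pms1, the direction never reversed, and 37 passed the threshold that the reported fit did not. These refits used the animals that chose the genes, and the genes with the smallest p had to have the same sign in both sexes. A reversal was therefore unlikely from the start, and its absence says little about these genes. Some other values near 0 changed sign, such as those of striatal Ormdl1 (0.06, lowest -0.02) and cortical Pms2 (-0.02, highest 0.01).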
